A study of Homo sapiens with 6 samples.

Results

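The BCL2 family of apoptosis regulators was followed here through 10 genes chosen by name: BCL2, BCL2L1, MCL1, BAX, BAK1, BBC3, PMAIP1, BCL2L11, BID and BAD. Each symbol matched 1 identifier among the 58395 Ensembl genes measured. The cells were M14, an established human melanoma cell line, grown without attachment as floating melanospheres that were mechanically broken up, stained for the surface antigen CD20 and flow sorted. Polyadenylated RNA of 3 CD20-positive and 3 CD20-negative fractions was sequenced, with replicates numbered 1 to 3 in each fraction; both fractions shared the line, the sphere culture and the sort, and no drug or genetic change was labelled. Whether each replicate was its own culture is not in the labels; p-values therefore speak only of how far these libraries differ among themselves, and that may be technical. An unsorted or adherent sample was not analysed here.

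BCL2 family proteins decide whether the outer mitochondrial membrane is opened, the step that releases cytochrome c and starts the caspase cascade. The guardians BCL2, BCL-xL (the product of BCL2L1) and MCL1 hold the membrane closed, the effectors BAX and BAK oligomerise to form the pores, and the BH3-only proteins either block the guardians or activate the effectors. Melanomas are known for leaning on MCL1 and BCL-xL for survival, and several BH3-only genes are switched on by loss of growth factor signals or stress of the endoplasmic reticulum. Much of the control of this family acts on protein stability, phosphorylation and location, which RNA sequencing does not measure.

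What the 10 genes share in sequence is the core of the BH3 motif, the helix through which the proteins bind each other. It was read from the GENCODE release 29 transcripts as 9 codons (27 bases) that start at a leucine codon and hold an aspartate codon at the sixth place. Each stretch is 5′ to 3′ in the coding strand, and capitals mark the leucine and the aspartate codon. The search was written from known BH3 cores: after the leucine it asked for arginine, alanine or lysine, then arginine, glutamine, glutamate or isoleucine, then any residue, then glycine, alanine or serine, then the aspartate. For each gene a transcript with a match was preferred, and then the longest coding sequence. That each chosen coding sequence matched, which it did once, therefore follows in part from this choice. Coding forms without the motif were not sought.
BCL2: CTCcgccaggccggcGACgacttctcc
BCL2L1: CTGagggaggcaggcGACgagtttgaa
MCL1: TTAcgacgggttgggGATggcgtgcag
BAX: CTCaagcgcatcgggGACgaactggac
BAK1: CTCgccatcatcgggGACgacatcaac
BBC3: CTGcggcggatggcgGACgacctcaac
PMAIP1: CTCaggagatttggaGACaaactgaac
BCL2L11: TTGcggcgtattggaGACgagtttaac
BID: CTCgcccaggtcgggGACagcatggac
BAD: CTCcggaggatgagtGACgagtttgtg

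MCL1 was the only one of the 10 to write the aspartate as GAT, the other sequences having GAC. The position of the stretch differed widely: it began at codon 29 of 54 in PMAIP1 and at codon 213 of 350 in MCL1. Between members the stretches shared 11 to 19 of the 27 bases, with 19 for BAX and PMAIP1, for BBC3 and BCL2L11, and for BAK1 and BID. The search required the leucine and the aspartate and limited other places, so part of this sharing follows from it. Gene-level values cover all transcripts of a gene, so the long and short forms of BCL2L1 and MCL1, which act in opposite ways, were not separated.

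The unit is FPKM (fragments for each kilobase of exon, scaled to a size for each library). The size that the values imply was 0.864 to 1.02 times the recovered fragments in CD20-positive and 1.07 to 1.10 times in CD20-negative libraries. A change below is a difference on log2(FPKM + 1), CD20-positive minus CD20-negative, which understates the change of low genes. Fragments recovered from the values came to 15651142 to 17479721 per CD20-positive and 16666530 to 17915918 per CD20-negative library. MS4A1, which encodes CD20, stood at 1.24, 0.966 and 1.28 FPKM in CD20-positive libraries 1, 2 and 3 and at 0.225, 0.263 and 0.403 in the CD20-negative fraction, in the direction of the labels and low in both (exact permutation test, two-sided, p = 0.1, which is the lowest that 3 libraries against 3 allow). Mitochondrially encoded RNA took 11.9 to 20.6% of the fragments in CD20-positive and 4.25 to 5.73% in CD20-negative libraries, and ribosomal protein genes 2.86 to 4.57% against 7.13 to 7.46%. Of 12 B-lineage markers, 3 (BANK1, FCRL1 and CR2) were listed at 0 in all 6; the summed level of the 12 was 5.24 to 5.94 FPKM in the CD20-positive fraction, against 2.76 to 4.60 in CD20-negative libraries. Of the melanocytic markers SOX10, MLANA and TYR did not exceed 0.262 FPKM in any library and MITF was at 1.72 to 2.34 FPKM. PMEL, a pigment granule protein gene, was at 14.8, 29.5 and 33.8 FPKM in CD20-positive libraries, against 8.73, 19.2 and 17.0 in CD20-negative libraries (limma, adjusted p = 0.613; 0.0117 in a fit blocked by replicate number). The 7 melanocytic genes summed to 17.3 to 35.7 FPKM in CD20-positive libraries and 11.1 to 21.4 FPKM in CD20-negative libraries. Libraries of replicate 1 stood apart from those of replicates 2 and 3 in both fractions, and values are given with and without them where this matters. In bulk RNA, fewer cells of a kind and less RNA per cell cannot be told apart.

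No member of the family was called different between the sorted fractions. Of the 10 genes, 9 averaged 1 FPKM or more across the libraries and were tested with limma among 13155 genes, and 0 of the 9 passed an adjusted p of 0.05. The same was true with the replicate number as a block, called the paired fit below. At an unadjusted p under 0.05 the count of members was also 0 in both fits. Voom on recovered fragments, also in limma, called 0 members without the block, where 0 of all 13141 tested genes were called. With the block it called 0 members, where 1563 of all tested genes were called. Among all tested genes the fit without the block called 0.0076%, which is 1 gene, the mitochondrial glutamate tRNA gene MT-TE (adjusted p = 0.0175), and gave an unadjusted p under 0.05 to 9.2%. In the paired fit the unadjusted share was 21.3%. Adjusted, the paired fit called 5.83% of all genes, with 3.19% higher and 2.64% lower in the CD20-positive fraction. The median log2 change was -0.14 over the 9 members and 0.000253 over all tested genes, with 8 of the 9 below 0 against 6570 of 13155. Single libraries moved the members' median: it was -0.36 without CD20-positive replicate 1, -0.040 without CD20-positive replicate 2 and -0.12 without CD20-positive replicate 3, with 8, 5 and 5 of the 9 below 0.

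**Figure D1:**
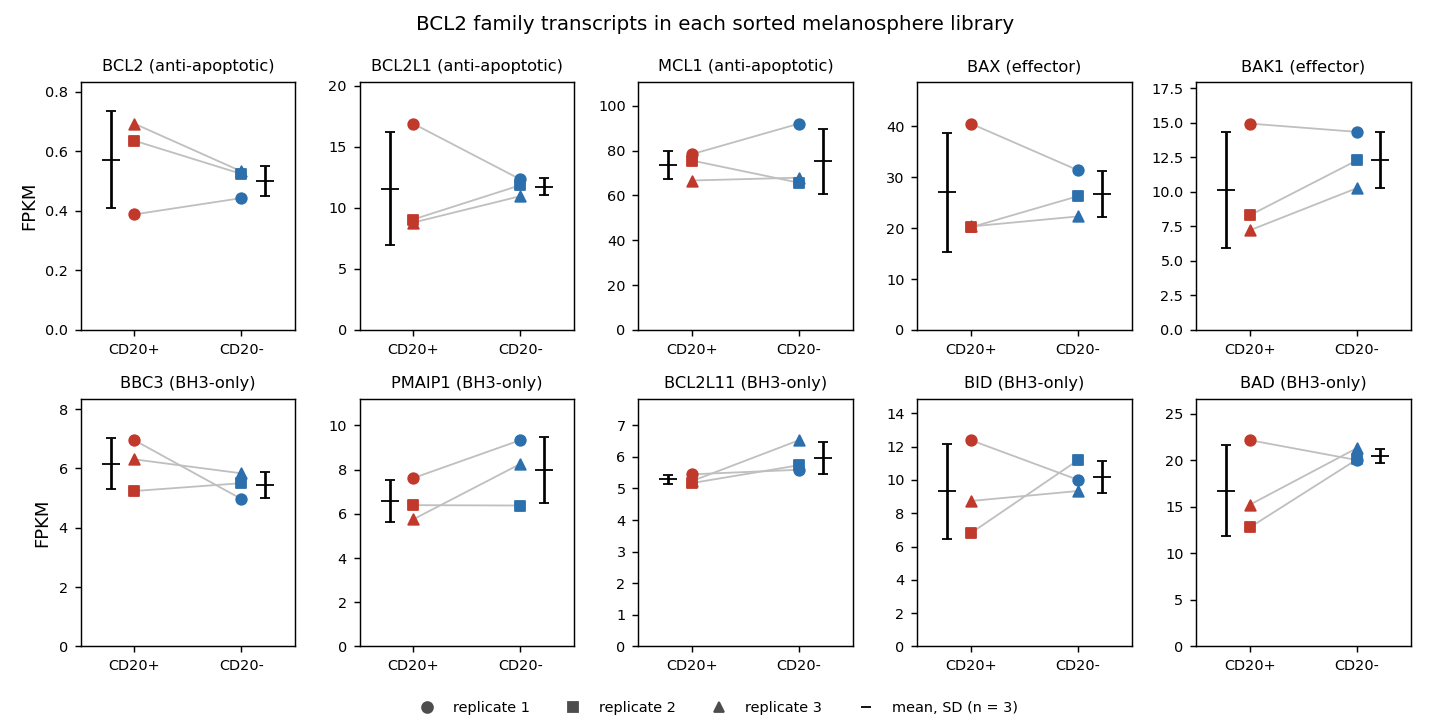
FPKM (vertical axes, from 0) of each of the 10 BCL2 family genes in the 3 CD20-positive (red, left) and 3 CD20-negative (blue, right) libraries; symbols give the replicate number, grey lines join the same number and black bars are mean and SD. The CD20-positive library of replicate 1 was the highest of the 6 for 6 genes, and the groups overlapped for each gene except BCL2L11.

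By level the family was led by MCL1 with 74.3 FPKM on average over the 6 libraries, which ranked 462 of the 13155 tested genes. BAX followed at 26.8, BAD at 18.6, BCL2L1 at 11.7, BAK1 at 11.2, BID at 9.74, PMAIP1 at 7.28, BBC3 at 5.80, BCL2L11 at 5.62 and BCL2 at 0.536 FPKM. FPKM is a level per length of all annotated exons, so a gene with long exons that these cells do not use, as may hold for BCL2 with 11765 annotated exon bases, reads low. Of the 9 steps in this order, 5 held in all 6 libraries, and the ranges of neighbours were apart at only 2 of them, MCL1 above BAX and BCL2L11 above BCL2. BCL2L1 lay above BAK1 in 4 libraries, BAK1 above BID and PMAIP1 above BBC3 in 5 each, and BBC3 above BCL2L11 in 3, so those neighbours do not have a settled order.

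Among the guardians, MCL1 encodes a short-lived protein needed by many tumour cells (GRCh38 chromosome 1, 150574551 to 150579738, minus strand). MCL1 measured 78.4, 75.5 and 66.6 FPKM in CD20-positive replicates 1, 2 and 3, and 92.0, 65.6 and 67.9 in the same replicates of the CD20-negative fraction. The highest value was the CD20-negative library of replicate 1, and the groups overlapped. Its log2 change was -0.019 ± 0.19 (SE; 95% confidence interval -0.46 to 0.42; limma, adjusted p = 0.985). In the paired fit the interval was -0.38 to 0.34 (adjusted p = 0.967). The sign of this small value turned in several settings, among them quantile normalization, at 0.079.

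BCL2L1 encodes BCL-xL (chromosome 20, 31664452 to 31723989, minus strand). It stood at 16.9, 9.05 and 8.80 FPKM in the CD20-positive fraction, against 12.3, 11.9 and 10.97 in the CD20-negative fraction. The CD20-negative libraries lay close together, whereas CD20-positive replicate 1 was above them and replicates 2 and 3 were below, so the means of 11.6 ± 4.62 FPKM in the CD20-positive libraries and 11.7 ± 0.699 in the CD20-negative ones (SD, n = 3) hide opposite directions in the pairs. The log2 change was -0.073 ± 0.24 (limma, adjusted p = 0.953). An antisense RNA, ABALON, covers 43.0% of the exon bases of BCL2L1; it measured 1.14 FPKM in the CD20-positive fraction, against 1.15 in CD20-negative cells on average. Whether counting used strand is not given in the sources used here, so reads of this pair cannot be told apart.

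BCL2 itself, the founding member of the family (chromosome 18, 63123346 to 63320128, minus strand), was scarce. CD20-positive libraries held 0.388, 0.636 and 0.694 FPKM, from 69, 120 and 129 fragments, and CD20-negative libraries 0.443, 0.524 and 0.533 FPKM, from 98, 110 and 124 fragments. Both libraries of replicate 1 were lowest in their group, the opposite of what BCL2L1 and MCL1 showed. BCL2 did not reach the filter of 1 FPKM; in the limma fit with no filter its log2 change was 0.063 ± 0.13 (adjusted p = 0.914). MCL1 took 81.9 to 88.6% of the summed FPKM of the 3 guardians in CD20-positive libraries and 84.1 to 87.8% in CD20-negative libraries.

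The effector BAX, a cytosolic protein that moves to mitochondria on activation (chromosome 19, 48954815 to 48961798, plus strand), measured 40.5, 20.2 and 20.3 FPKM in the CD20-positive fraction, against 31.4, 26.3 and 22.3 in the CD20-negative fraction. CD20-positive libraries held both the highest value, in replicate 1, and the lowest values, in replicates 2 and 3. The means were 27.001 ± 11.7 FPKM in the CD20-positive libraries and 26.6 ± 4.54 in the CD20-negative ones (SD, n = 3), with a log2 change of -0.045 ± 0.29 (limma, adjusted p = 0.977) and a paired interval of -0.40 to 0.31. Removing CD20-positive replicate 2 or 3 turned the sign, to 0.12 and 0.11.

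BAK1 encodes BAK, the effector that resides in the outer mitochondrial membrane (chromosome 6, 33572547 to 33580293, minus strand). Its values were 14.9, 8.29 and 7.21 FPKM in the CD20-positive fraction, against 14.3, 12.3 and 10.3 in the CD20-negative fraction. Replicates 2 and 3 of the CD20-positive fraction were below every CD20-negative library, and replicate 1 was above all of them. The log2 change was -0.31 ± 0.27 (limma, adjusted p = 0.757), and ± 0.15 in the paired fit (adjusted p = 0.268, interval -0.63 to 0.021). Without both libraries of replicate 1 it was -0.49 and passed, with adjusted p = 0.0365 without the block, where 7.45% of all tested genes were called lower, and 0.0364 with it, where 8.54% were. Leaving out CD20-positive replicate 1 alone gave -0.59, whereas the change was -0.21 without CD20-positive replicate 2, -0.12 without CD20-positive replicate 3 and -0.20 without CD20-negative replicate 1, with no call in any of these. In the paired fit it was -0.20 without replicate 2.

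The ratio of BAX to BAK1 within a library, which no scaling between libraries can change, was 2.71, 2.43 and 2.82 in CD20-positive cells and 2.19, 2.14 and 2.17 in CD20-negative cells. Each CD20-positive library was above the CD20-negative ones, and replicate 1 followed the others here. This ratio and the next were chosen from several after the values were seen and are given as a description. What share of ratios between other genes would separate the fractions was not computed. In an exact permutation test, 3 libraries against 3 cannot go below p = 0.1. PMAIP1 over MCL1 did not overlap either, with the nearest libraries almost equal. It was 0.09714, 0.0846 and 0.0862 in CD20-positive and 0.101, 0.09715 and 0.122 in CD20-negative cells. By contrast BAX over BCL2L1 was 2.40, 2.23 and 2.31 in CD20-positive and 2.54, 2.21 and 2.03 in CD20-negative cells, with overlap; both genes were highest in replicate 1 of each fraction.

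**Figure D2:**
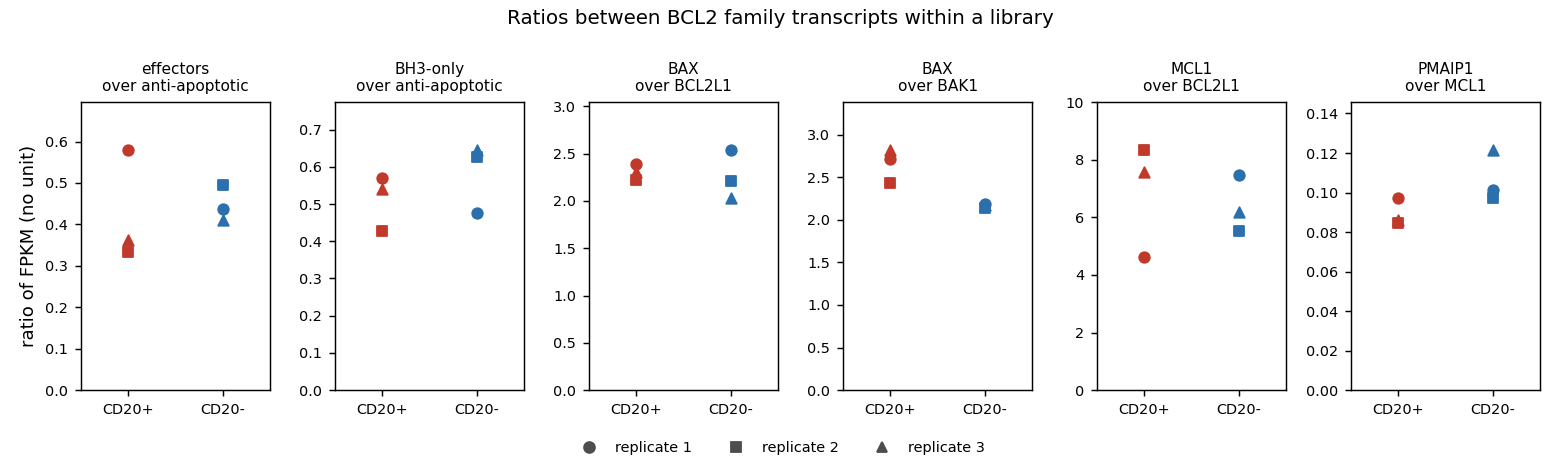
Ratios of FPKM between members or summed roles within each library (vertical axes from 0, no unit), CD20-positive in red at left and CD20-negative in blue at right, with symbols for the replicate number. BAX over BAK1 spanned 2.43 to 2.82 in CD20-positive and 2.14 to 2.19 in CD20-negative libraries, while effectors over guardians spanned 0.334 to 0.580 in CD20-positive and 0.410 to 0.494 in CD20-negative libraries.

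Among BH3-only genes, BAD encodes a sensitiser that is held in the cytosol when phosphorylated by survival kinases (chromosome 11, 64269830 to 64284704, minus strand). BAD measured 22.2, 12.8 and 15.2 FPKM in the CD20-positive fraction, against 20.03, 20.1 and 21.3 in the CD20-negative fraction. The CD20-negative libraries were nearly level, replicates 2 and 3 of the CD20-positive fraction lay below all of them, and replicate 1 lay above. Its means of 16.7 ± 4.87 FPKM in the CD20-positive libraries and 20.5 ± 0.721 in the CD20-negative ones (SD, n = 3) gave a log2 change of -0.31 ± 0.20, the smallest p among the members in that fit but no call (limma, adjusted p = 0.673; 0.299 in the paired fit, interval -0.67 to 0.043). Without both libraries of replicate 1 the change was -0.54, with adjusted p = 0.0212 without the block and 0.0166 with it. Leaving out CD20-positive replicate 1 alone gave -0.52, against -0.15 without CD20-positive replicate 2, and the paired fit gave -0.16 without replicate 2, with no call. The opposite-strand gene GPR137 shares 23.7% of the exon bases of BAD and averaged 26.3 FPKM in the CD20-positive fraction, against 22.9 in CD20-negative cells, so BAD carries the same doubt about strand as BCL2L1.

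BID, which links death receptors to mitochondria once caspase-8 has cut it (chromosome 22, 17734138 to 17774770, minus strand), stood at 12.4, 6.80 and 8.74 FPKM in the CD20-positive fraction, against 10.003, 11.2 and 9.33 in the CD20-negative fraction. It repeated the arrangement of BAD, with replicate 1 highest and replicates 2 and 3 lowest in the CD20-positive fraction. Its log2 change was -0.15 ± 0.21 (limma, adjusted p = 0.865).

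PMAIP1 encodes NOXA, which binds MCL1 and speeds its breakdown (chromosome 18, 59899948 to 59904306, plus strand). Values were 7.61, 6.39 and 5.74 FPKM in the CD20-positive fraction, against 9.33, 6.37 and 8.26 in the CD20-negative fraction. Replicate 1 was highest within each fraction, and the groups overlapped. The log2 change was -0.24 ± 0.17 (limma, adjusted p = 0.707; 0.364 in the paired fit).

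BBC3 encodes PUMA, a protein that binds all of the guardians (chromosome 19, 47220822 to 47232766, minus strand). It measured 6.95, 5.24 and 6.31 FPKM in the CD20-positive fraction, against 4.97, 5.50 and 5.83 in the CD20-negative fraction. BBC3 was the only tested member with a change above 0, at 0.15 ± 0.14 (limma, adjusted p = 0.775), and this sign turned to -0.29 with each library scaled to its FPKM total and to -0.0091 with the fragment total.

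BCL2L11 encodes BIM, an activator restrained by ERK signalling (chromosome 2, 111119378 to 111168447, plus strand). The opposite-strand RNA gene MIR4435-2HG shares 10.9% of its exon bases. That RNA averaged 0.573 FPKM in the CD20-positive fraction, against 0.668 in the CD20-negative fraction. The doubt about strand given for BCL2L1 and BAD therefore holds here too. CD20-positive libraries held 5.45, 5.17 and 5.23 FPKM of BCL2L11 and CD20-negative libraries 5.59, 5.74 and 6.53 FPKM. It was the only tested member whose groups did not overlap, lower in CD20-positive cells, where 6.14% of all tested genes were lower without overlap; 8.87% were higher, against 0 members, which makes 15% in both directions. The gap between the groups was narrow, the means of 5.28 ± 0.145 FPKM in the CD20-positive libraries and 5.95 ± 0.504 in the CD20-negative ones (SD, n = 3) gave a log2 change of -0.14 ± 0.12, and the test was not passed (limma, adjusted p = 0.747; 0.587 in the paired fit).

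**Figure D3:**
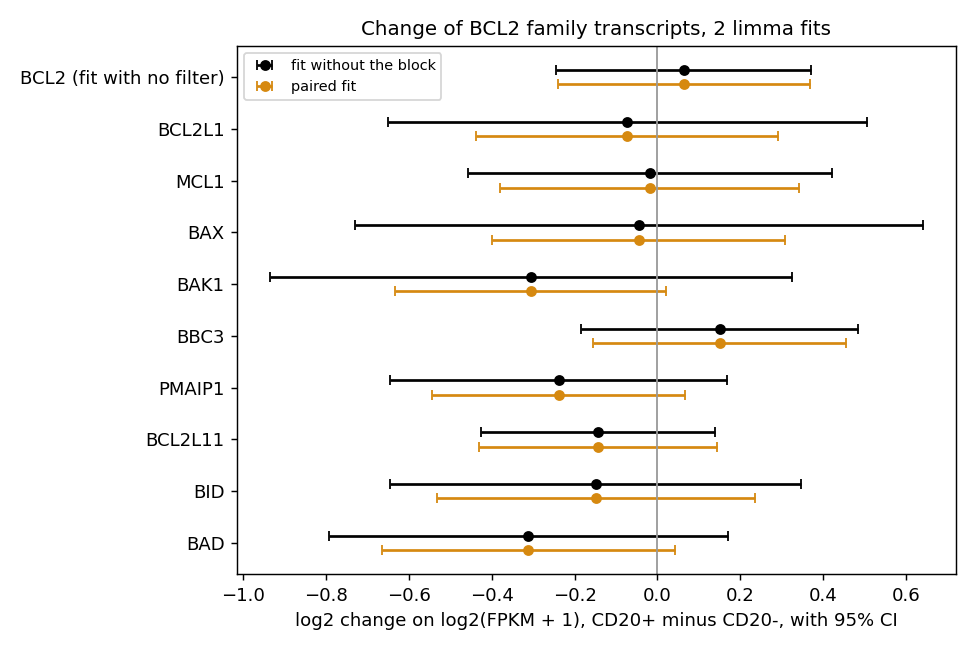
Log2 change on log2(FPKM + 1), CD20-positive minus CD20-negative (horizontal axis), with 95% confidence intervals, for the fit without the block (black) and the paired fit (orange); BCL2 is from fits with no filter. The intervals of all 10 genes hold 0 in both fits, and the widest, of BAX and BAK1 without the block, run from -0.73 to 0.64 and from -0.94 to 0.32.

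These intervals hold for the deposited scaling only, and rescaled values can fall outside them. With each library scaled to its FPKM total, the change of BAD was -0.81, below its lower bound in both fits. Without the block the lowest lower bound among the tested members was -0.94, for BAK1, and the highest upper bound was 0.64, for BAX; a doubling or a halving of the FPKM + 1 value would be 1 on this scale. In the paired fit the outermost bounds were -0.67, for BAD, and 0.46, for BBC3.

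Within replicate numbers the family did not move one way. In replicate 1, 6 of the 10 genes were higher in the CD20-positive library, in replicate 2, 3 were, and in replicate 3, 2 were. BCL2L1, BAX, BAK1, BID and BAD were higher in CD20-positive cells of replicate 1 and lower in those of replicates 2 and 3. BAX differed by 0.36, -0.37 and -0.13 on the log2 scale in replicates 1, 2 and 3, and BAD by 0.14, -0.61 and -0.46. BCL2L11 was lower in all 3, by 0.032, 0.13 and 0.27 in size, where 20.4% of all tested genes were lower in all 3. Whether the difference between fractions varied with the replicate number could not be tested, since each combination has 1 library.

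**Figure D4:**
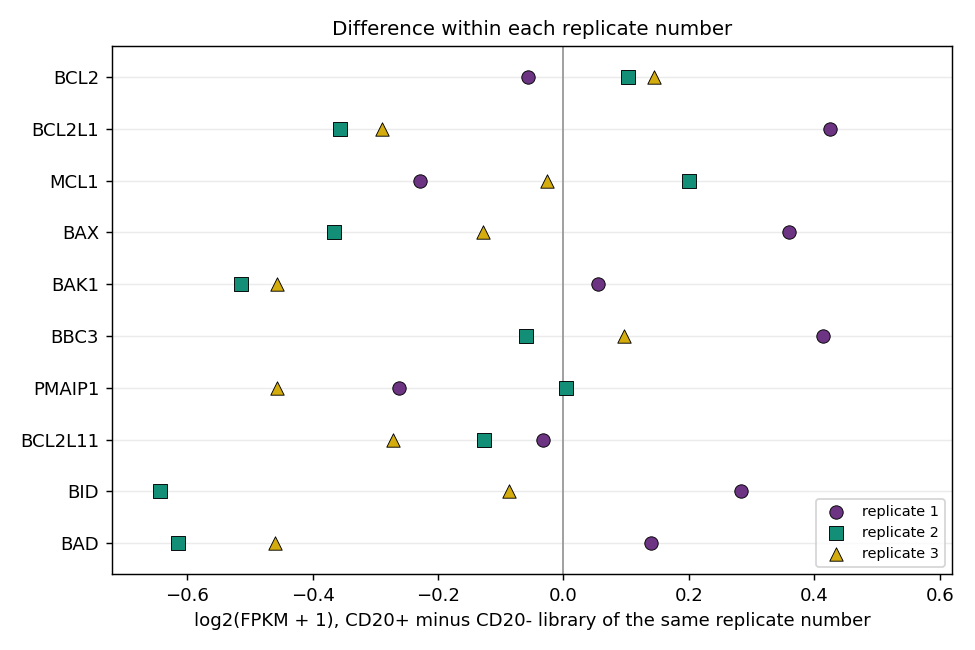
Difference on log2(FPKM + 1) between the CD20-positive and the CD20-negative library of the same replicate number (horizontal axis) for each of the 10 genes. Replicate 1 (purple circles) lies right of 0 and replicates 2 and 3 (green squares, yellow triangles) left of it for BCL2L1, BAX, BAK1, BID and BAD.

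The replicate number itself was tested with limma's F-test in the paired fit. It was passed by 2 of the 9 tested members, BAX (adjusted p = 0.0466) and BAK1 (adjusted p = 0.0454), where 16.2% of all tested genes passed. The mean of the libraries of replicate 1 exceeded that of the others by 0.66 for BAX and 0.60 for BAK1 on the log2 scale, and BCL2L1 at 0.48 did not pass (adjusted p = 0.178). What part the replicate number has in the differences between the fractions was not tested.

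Summed by role over the 10 listed genes, the guardians came to 85.7 ± 9.78 FPKM in the CD20-positive fraction, against 87.4 ± 15.1 in the CD20-negative fraction (SD, n = 3). The sums by role leave out other genes of the family. Among them BCL2L2 averaged 6.74 FPKM in the CD20-positive and 6.76 in the CD20-negative fraction, and BOK 15.2 and 17.5. Effectors summed to 37.1 ± 15.9 FPKM in the CD20-positive libraries and 38.9 ± 6.58 in the CD20-negative ones. BH3-only genes summed to 44.1 ± 9.41 FPKM in the CD20-positive libraries and 50.03 ± 1.19 in the CD20-negative ones. The ratio of effectors to guardians was 0.580, 0.334 and 0.362 in CD20-positive libraries and 0.436, 0.494 and 0.410 in CD20-negative libraries. BH3-only genes relative to guardians gave 0.570, 0.427 and 0.542 in CD20-positive and 0.476, 0.627 and 0.646 in CD20-negative libraries. Neither ratio separated the fractions, and both had their highest CD20-positive value in replicate 1.

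Scaling bears on these values. Mitochondrial RNA took 39.3 to 52.3% of the FPKM total in CD20-positive and 16.0 to 21.0% in CD20-negative libraries. Its part in the shifts below was not tested. With each library scaled to its FPKM total, the median over all tested genes moved to -0.41 and that of the members to -0.58, and the paired fit then called 7 of the 9 members lower, where 29.1% of all tested genes were called lower. Without the block 1 member, BAD, was called under that scaling, where 10.3% of all genes were called lower. Scaled to the FPKM total of genes outside the mitochondrial genome, the median of all genes was 0.087 and that of the members -0.055, with 5 of the 9 below 0. Under that scaling 0 members were called in either fit. Of all 13155 tested genes, 1 was called without the block and 942 in the paired fit. With the recovered fragment total, the median of all genes was -0.15 and that of the members -0.30. All 9 members were then below 0 and 0 were called in either fit. Of all tested genes, 1 was called without the block and 1180, with 978 of them lower, in the paired fit. The median of all genes near 0 therefore depends on the deposited scaling.

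Other genes of the BCL2 family gave no call in either fit, 0 of 8 tested of 13 listed, with a median log2 change of 0.12 and 0 at an unadjusted p under 0.05. By the rule for named genes, BNIP3L, a mitophagy receptor, measured 8.88, 12.7 and 11.5 FPKM in the CD20-positive fraction, against 8.34, 7.58 and 11.5 in the CD20-negative fraction (0.25, limma, adjusted p = 0.728). BOK, an effector-like member, had a log2 change of -0.20 and BCL2L12 of 0.13, with no call. By replicate number, 4 of these 8 tested genes passed the F-test of the paired fit, where 16.2% of all tested genes did. The BH3-only genes BMF and BIK, chosen after their values were seen, differed by replicate number in opposite ways. BMF stood at 4.29, 0.916 and 0.952 FPKM in the CD20-positive fraction, against 2.70, 0.834 and 0.780 in the CD20-negative fraction, in the same order (limma F-test, adjusted p = 0.00168). BIK stood at 1.04, 4.06 and 4.25 FPKM in CD20-positive libraries, against 0.781, 3.88 and 2.49 in CD20-negative libraries (adjusted p = 0.000915). BCL2A1, a guardian gene that MITF drives in pigmented melanoma, was listed at 0 in 5 libraries and 0.0977 FPKM in the CD20-negative library of replicate 1.

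Downstream of the membrane, 1 of the 13 tested genes for release factors, the apoptosome and caspases was called, lower and in the paired fit only, where 2.64% of all tested genes were called lower. CYCS, which encodes the cytochrome c that carries electrons and, once released, assembles the apoptosome, measured 57.7, 50.9 and 36.4 FPKM in the CD20-positive fraction, against 105, 66.3 and 77.4 in the CD20-negative fraction. The groups did not overlap, and CYCS fell by 0.77 on the log2 scale (limma, paired SE 0.17, adjusted p = 0.0269; 0.436 without the block). VDAC1 and VDAC2, channels of the outer membrane, stood at 80.2 ± 10.7 and 48.0 ± 6.58 FPKM in the CD20-positive fraction, against 101 ± 5.45 and 61.6 ± 5.05 in the CD20-negative fraction, without overlap, as for 6.14% of all tested genes, and without a call (paired adjusted p = 0.270 and 0.200). The mitochondrially encoded protein genes went the other way, with 9 of 13 called higher in the paired fit, where 3.19% of all tested genes were, 0 of 13 called without the block and a median of 1.82; their part in the CYCS value was not tested. The number of calls in the paired fit varied with the libraries: 767 with all of them, 331 without replicate 3 and 1, a lower one, without replicate 2. Whether that 1 gene was CYCS is not given here. With no filter on low values the paired fit called 0, so the CYCS call ended in that setting. The initiator caspase gene CASP9 and its scaffold APAF1, picked with their values known, had log2 changes of 0.030 and 0.032 and no call.

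Inhibitors of apoptosis had 0 of 6 called in either fit, with 0 at an unadjusted p under 0.05. BIRC7, a melanoma-associated inhibitor, measured 2.67, 0.759 and 1.05 FPKM in the CD20-positive fraction, against 0.681, 0.934 and 0.518 in the CD20-negative fraction (0.48, adjusted p = 0.659), with the CD20-positive library of replicate 1 apart. XIAP had a log2 change of -0.16 and BIRC5, which encodes survivin, of 0.16. The death receptor pathway had 0 of 11 called in either fit and 0 at an unadjusted p under 0.05. TNFRSF10B, the TRAIL receptor DR5, measured 29.4, 34.1 and 37.4 FPKM in the CD20-positive fraction, against 27.1, 28.8 and 26.96 in the CD20-negative fraction. It was higher without overlap, as were 8.87% of all tested genes, at 0.27 ± 0.14 (limma, adjusted p = 0.628; 0.317 in the paired fit). TNFRSF1A had a log2 change of 0.29 and CFLAR, which encodes the caspase-8 inhibitor FLIP, of 0.18, with no call.

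The integrated stress response had 0 of 7 and the genes that act on MCL1 protein turnover 0 of 5 called, in either fit, and 0 at an unadjusted p under 0.05. ATF4, the transcription factor of that response, measured 81.1 ± 6.10 FPKM in the CD20-positive libraries and 88.8 ± 1.18 in the CD20-negative ones. ATF3 and PPP1R15A had log2 changes of -0.19 and -0.11. HUWE1, the ligase that marks MCL1 for breakdown, stood at 25.3, 40.3 and 40.5 FPKM in the CD20-positive fraction, against 25.8, 30.7 and 36.4 in the CD20-negative fraction, lowest in replicate 1 of each. BTRC and FBXW7 had log2 changes of -0.052 and -0.064.

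The patterns most like that of BAD, the member with the smallest p without the block, were sought among 4206 protein-coding genes that averaged 10 FPKM or more, by Pearson correlation of log2(FPKM + 1) over the 6 libraries, which share depth and scaling. They were NUDT19 (r = 0.982), MYDGF (0.977), C11orf68 (0.970), UBE2L6 (0.968) and RITA1 (0.967), given as a description. UBE2L6, for example, measured 20.3, 7.92 and 8.75 FPKM in the CD20-positive fraction, against 18.1, 17.4 and 16.4 in the CD20-negative fraction, again level in the CD20-negative fraction and high in replicate 1 alone of the CD20-positive one.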

How the data were processed

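The values are FPKM deposited by the authors in 1 table of 6 libraries; its header names no unit. Multiplied by exon length (GENCODE release 29, GRCh38), 98.1 to 98.6% of the low FPKM values (up to 20 fragments) of the deposited libraries were whole fragments within 0.02. The submitters' processing notes name DESeq2, featureCounts 1.5.0, HISAT2 and GRCh38, with no settings, strand included. GENCODE held 58275 of the identifiers.

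Genes averaging 1 FPKM or more were tested with limma 3.58.1 under R 4.3.3, on log2(FPKM + 1) (trend, robust prior), Benjamini-Hochberg adjusted over all of them, threshold 0.05. A filter at 10 FPKM would leave out 4 more members. Replicate numbers were taken as pairing the samples, since deviations of same-numbered libraries from their group means correlated at 0.67, 0.24 and 0.51. CD20-negative replicate 2, however, was closer to CD20-positive replicate 3 (0.43), so these data do not tell how replicates 2 and 3 pair. The code was tested on simulated data. Intervals and fragment counts cover the spread or counting of these libraries only.

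The members and lists were chosen with earlier results of these data known. Named genes are the members, MS4A1, up to 3 genes of each list with the smallest p without the block, and the 5 genes most like the member with the smallest p. From the mitochondrial list these are MT-ND1, MT-ND5 and MT-ND6 (log2 changes 1.89, 1.86 and 1.89); PMEL and MITF of the melanocytic list had log2 changes of 0.75 (paired adjusted p = 0.0117) and -0.074. Some listed genes, and the results of 1 list, are not reported here. Sensitivity to pseudocount, filter, scaling, prior, voom, exon length, block and left-out libraries was computed.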

Additional observations from a re-analysis of the deposited data

How the results depend on the processing

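The absence of a call among the members held in most settings and ended in the following ones. Scaling to the FPKM total called 1 member without the block and 7 with the replicate block (both 0 otherwise). Leaving out both libraries of replicate 1 called 2, BAK1 and BAD, without the block, where 7.45% of all genes were called lower, and 2 with it (8.54%); over the paired fits without a replicate number the range was 0 to 2. With the replicate block itself the count of members stayed at 0. Of the members' log2 changes, 167 under alternatives to the fit without the block and 111 under alternatives to the paired fit kept their sign and their side of the threshold, 3 and 9 passed it and 15 and 11 turned, all of the last short of the threshold. A setting that changes only the filter, the prior or the block leaves the log2 change as it was. There the sign could not turn, and only the adjusted p could move.

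Over all genes, 1 call without the block became 2 with a pseudocount of 10, 9 with quantile normalization, 767 (420 higher, 347 lower) with the replicate block, 670 with the exon length correction and the block, 1382 (28 and 1354) with the FPKM total, 1813 without both libraries of replicate 1 and 0 with no filter, voom or the exon length correction; leaving out 1 library gave 0 to 322, with 322 calls without CD20-positive replicate 1. The paired 767 became 0 with no filter, 450 with plain eBayes, 1180 (202 and 978) with the fragment total, 1563 with voom, 3923 (90 and 3833) with the FPKM total and 1 with no replicate block; leaving out a replicate number gave 1 (replicate 2) to 2141 (replicate 1), and 331 for replicate 3. The cause was not tested.

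Signs that turned: scaled to the FPKM total outside the mitochondrial genome, BCL2L1 was 0.021, MCL1 0.085 and BAX 0.055 in both fits. BBC3 turned to -0.29 (FPKM total) and -0.0091 (fragment total), and MCL1 to 0.079 with quantile normalization, in both fits. Without CD20-positive replicate 2, BCL2L1 was 0.060, BAX 0.12 and BID 0.034; without CD20-positive replicate 3, BCL2L1 was 0.078, MCL1 0.050 and BAX 0.11; without CD20-negative replicate 1, MCL1 was 0.13 and BAX 0.075. Without both libraries of replicate 1, MCL1 was 0.087 in both fits. In the paired fit BCL2L1 was 0.068, BAX 0.12 and BID 0.098 without replicate 2, and BCL2L1 0.035 without replicate 3. Settings with the block other than the block itself, exon length and left-out replicates, the fragment total, the total outside the mitochondrial genome and the fit without both libraries of replicate 1 were chosen after seeing the data. Over the fits without 1 library, BCL2L1 ranged from -0.36 to 0.078, MCL1 from -0.11 to 0.13 and BAX from -0.37 to 0.12; over the paired fits without a replicate number BID ranged from -0.36 to 0.098. With 3 libraries a group, the width of the intervals limits what can be told.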
